A study of Homo sapiens with 32 samples.

Results

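Romidepsin was compared with no romidepsin in H9, a line labelled as cutaneous T-cell lymphoma. By its cell line label and title, H9 gave 8 of the 32 libraries of the study. The 4 conditions with romidepsin at 1 nM were romidepsin alone and romidepsin with azacitidine (5-azacytidine) at 50, 125 or 250 nM. The 4 conditions without romidepsin were untreated cells and azacitidine alone at 50, 125 or 250 nM. Each library with romidepsin was paired with the one at the same azacitidine dose, which gave 4 pairs. Cells grew in logarithmic phase for 96 hours. Per the labels, romidepsin went in at time 0 and azacitidine again at intervals of 24 hours. Combination titles carry no unit beside their doses, which were read as nM. Each condition was 1 library of 1 cell line, so the pairs are dose pairs and not replicate cultures. All 4 libraries with romidepsin share 1 dose of it, and 3 of the 4 pairs had azacitidine in both libraries.

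Romidepsin is a natural bicyclic peptide that inhibits histone deacetylases, mainly those of class I. These enzymes remove acetyl groups from histone tails and other proteins, and their inhibition leaves chromatin more acetylated and usually raises the expression of a set of genes that were low. The drug is used against T-cell lymphomas. Azacitidine is a cytidine analogue that traps DNA methyltransferases. H9 is a clonal derivative of HUT 78, a line grown from the blood of a person with Sezary syndrome, the leukemic form of cutaneous T-cell lymphoma.

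The H9 totals ran from 22098317 to 27913763 counts with romidepsin and from 25476612 to 29431141 counts without it. Levels are given as CPM, counts relative to the library total, with that total scaled by TMM, and 3 counts stood at 0.103 to 0.132 CPM in these libraries. Levels of a gene are compared between libraries only, since they are not divided by gene length. Most markers of the labelled T-cell type were present, and 38 of 40 T-cell identity and receptor genes had a mean of at least 1 CPM. The exceptions were CD2, at 0.498 CPM with romidepsin and 0.362 CPM without, and CD8B, with 0 counts in all 8 libraries. CD7 was low, at 4.85 CPM with romidepsin and 4.38 CPM without. CD3E, a chain of the T-cell receptor complex, averaged 218 CPM with romidepsin and 206 CPM without it, and LCK, the kinase of that receptor, averaged 300 CPM with romidepsin and 319 CPM without. Markers of other cells were mixed. PAX5 of B cells, HBB of red cells and KRT19 of epithelia had 0 counts in all 8 libraries, whereas CD79A averaged 59.0 CPM with romidepsin and 53.6 CPM without, EPCAM 111 CPM with and 127 CPM without, and THY1 108 CPM with and 122 CPM without. The summed B-cell list lay between 117 and 140 CPM with romidepsin and between 98.6 and 141 CPM without, and no tested member of the B-cell, myeloid, erythroid, epithelial or fibroblast list passed the test. In bulk RNA, fewer cells that express a gene and less RNA of it per cell cannot be told apart.

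More genes were called higher than lower with romidepsin in H9. Of 17101 genes tested, 653 rose (3.82%) and 163 fell (0.953%), 4.77% in all (edgeR quasi-likelihood F test with the dose pairs as blocks, Benjamini-Hochberg adjusted p under 0.05). At least 2-fold changes were 254 among the genes that rose (1.49%) and 17 among those that fell (0.0994%). The median log2 fold change was 0.80 over the genes that rose and -0.309 over those that fell. Without romidepsin, the genes that rose had a median level of 5.05 CPM and those that fell of 55.2 CPM, against 15.2 CPM over all genes tested. Under 1 CPM without romidepsin were 22.1% of the genes that rose and 2.45% of those that fell, against 24.7% of all genes tested. These levels are not divided by gene length and enter the tested comparison, so they are given as description only. The direction held in 4 of 4 pairs for 638 of the 653 genes and 159 of the 163 genes, where 17.6% of all genes tested were higher and 18.1% were lower in 4 of 4 pairs. The libraries with and without romidepsin did not overlap at all for 361 of the 653 and 64 of the 163, where 4.56% and 3.13% of all genes did so. Both sets were picked by a test on these 4 pairs. Agreement over the pairs and a lack of overlap were therefore largely built in, and no result is read from them. The spread behind these tests is that of the 4 pairs and of 3 other T-cell lines in the same fit. Without the dose blocks, 53 genes rose and 1 fell. With only the 8 H9 libraries in the fit, 1589 genes rose and 1134 fell. Over all genes tested, called or not, 8212 estimates were positive and 8889 negative. Leaving out the 50, 125 or 250 nM pair left 457, 368 or 286 genes called, of which 448, 361 and 281 were among the 816.

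The first principal component of the H9 libraries followed the azacitidine dose, and the second separated romidepsin from none. Over 12991 genes with a mean of at least 1 CPM, the first component held 57.1% of the variance and the second 22.2%. On the second, the libraries with romidepsin lay between 9.85 and 14.3 and those without between -20.2 and -5.08. The 2 sets did not overlap, and the gap within a pair was widest at 250 nM azacitidine.

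**Figure D1:**
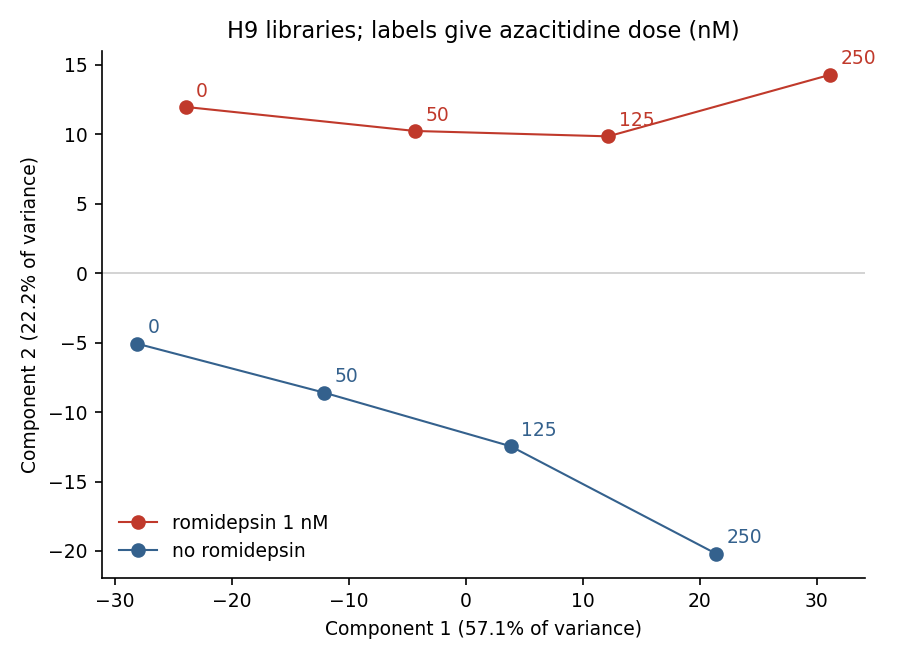
Each point is 1 H9 library on the first 2 principal components of log2 CPM, red with romidepsin at 1 nM and blue without, labelled with the azacitidine dose in nM and joined in dose order. The red points lie between 9.85 and 14.3 on the vertical axis and the blue points between -20.2 and -5.08, and both run from left to right with dose.

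The genes with the largest rises were low-level genes of many kinds, and the values below are in the order of 0, 50, 125 and 250 nM azacitidine. MEIS3, a homeobox transcription factor, had 22.9, 32.4, 27.7 and 48.3 CPM with romidepsin, against 2.59, 7.17, 4.29 and 3.29 CPM without. The groups were far apart, with a log2 fold change of 2.94 ± 0.27 (SE; edgeR adjusted p = 4.84e-05). SUCNR1, the cell-surface receptor for succinate, had 8.39, 18.4, 18.9 and 19.7 CPM with romidepsin, against 1.78, 3.94, 2.99 and 1.503 CPM without. Every library with it was above every library without it (log2 2.68 ± 0.24, edgeR adjusted p = 0.000132). The long noncoding RNA MIAT was nearly level across azacitidine doses with romidepsin, at 72.0, 77.4, 72.0 and 73.3 CPM, against 22.2, 17.4, 16.5 and 8.73 CPM without. Its groups did not overlap (log2 2.23 ± 0.29, edgeR adjusted p = 0.000444).

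SLAMF7, a receptor of activated lymphocytes, rose by 2.25 ± 0.23 (log2), with 2.29, 7.004, 9.30 and 3.26 CPM with romidepsin, against 0.464, 1.03, 1.81 and 1.15 CPM without. FCER2, which encodes the IgE receptor CD23, had 3.84, 6.88, 9.65 and 23.0 CPM with romidepsin, against 1.66, 2.298, 1.73 and 2.65 CPM without (log2 2.16 ± 0.28). Both sets of libraries were apart, and in FCER2 the library with romidepsin and 250 nM azacitidine stood highest. EEF1A2, a translation elongation factor of nerve and muscle, rose by 2.71 ± 0.34, SEMA6B, a semaphorin, by 2.75 ± 0.45, and EMR2, an adhesion receptor of myeloid cells, by 2.16 ± 0.36 on the log2 scale, all with groups that did not overlap. TCN1, which encodes a vitamin B12 binding protein, had the largest positive log2 fold change, 3.10 ± 0.52, among called genes with a mean of at least 1 CPM and the same direction in 4 of 4 pairs. It had 0.177, 0.523, 1.45 and 6.04 CPM with romidepsin, against 0.155, 0.103, 0.0394 and 0.537 CPM without, so that its groups overlapped and its rise lay mainly in the pairs at 125 and 250 nM. UNC13A, a priming factor of synaptic vesicles, had 0.618, 1.09, 1.91 and 6.57 CPM with romidepsin, against 0.387, 0.343, 0.473 and 0.680 CPM without. Its log2 fold change of 2.17 ± 0.46 lost its call without the 250 nM pair (edgeR adjusted p = 0.217).

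Among the genes with the smallest p-values, TMEM2, a membrane protein, had 70.4, 91.6, 98.1 and 117 CPM with romidepsin, against 41.8, 42.0, 43.2 and 46.5 CPM without (log2 1.10 ± 0.08, edgeR adjusted p = 2.97e-07). The level without romidepsin barely moved with azacitidine, and the gap was present at each dose. CRMP1, a phosphoprotein of growing nerve fibres, had 6.67, 8.37, 9.37 and 17.0 CPM with romidepsin, against 2.13, 2.85, 2.09 and 3.40 CPM without (log2 1.94 ± 0.15, edgeR adjusted p = 3.74e-07). Its groups were also apart, as were those of COL27A1, a fibrillar collagen chain (log2 1.80 ± 0.15), of NINJ2, an adhesion protein (1.17 ± 0.10), and of PLA2G4A, the cytosolic phospholipase that frees arachidonic acid (1.37 ± 0.13).

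The MHC class II genes rose together more often than any other list examined. Class II molecules are pairs of alpha and beta chains that show peptides to CD4 T cells. HLA-DM and HLA-DO control the loading of these peptides, CD74 is the invariant chain that guards the groove, and the coactivator CIITA with the RFX proteins switches the genes on. Human T cells express class II after activation. Of 18 members tested, 11 rose and none fell (61.1%, against 4.77% of all genes tested), and the median log2 fold change was 0.59, against 0 over all genes. CIITA, CD74, HLA-DOB and HLA-DQB2 and the 3 RFX genes did not pass. The count stayed between 9 and 13 under other scalings, filters, tools and left-out lines or dose pairs, and was 15 (14 higher, 1 lower) with only the 8 H9 libraries. It was 3 without the dose blocks, where differences between azacitidine doses count as spread.

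Class II promoters are known for a conserved stretch with an X box, bound by RFX, and a Y box that holds CCAAT on the reverse strand (ATTGG). The 150 bases before the annotated start are shown for the 5 called members whose promoter window held the X box letters (AG, 2 free bases, AC, 1 free base, then GATG), to show the element that these genes share. They are reference sequences of RefSeq on GRCh38.p14, not sequences of H9, and all lie on the minus strand: HLA-DRB1 at chr6:32589849-32589998, HLA-DRB5 at chr6:32530288-32530437, HLA-DQB1 at chr6:32666658-32666807, HLA-DMA at chr6:32953098-32953247 and HLA-DMB at chr6:32941029-32941178. Capitals mark the X box letters and each ATTGG.
HLA-DRB1: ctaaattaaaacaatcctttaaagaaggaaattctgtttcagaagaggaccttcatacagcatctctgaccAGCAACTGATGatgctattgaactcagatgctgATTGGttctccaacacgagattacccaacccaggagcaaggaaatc
HLA-DRB5: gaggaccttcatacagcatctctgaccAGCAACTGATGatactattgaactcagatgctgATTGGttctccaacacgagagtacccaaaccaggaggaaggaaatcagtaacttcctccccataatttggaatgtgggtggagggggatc
HLA-DQB1: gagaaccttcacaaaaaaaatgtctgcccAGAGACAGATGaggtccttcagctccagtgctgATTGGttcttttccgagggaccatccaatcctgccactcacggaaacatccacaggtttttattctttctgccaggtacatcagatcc
HLA-DMA: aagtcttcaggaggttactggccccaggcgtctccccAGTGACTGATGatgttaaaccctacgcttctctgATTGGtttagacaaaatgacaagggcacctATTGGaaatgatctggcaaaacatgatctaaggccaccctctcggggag
HLA-DMB: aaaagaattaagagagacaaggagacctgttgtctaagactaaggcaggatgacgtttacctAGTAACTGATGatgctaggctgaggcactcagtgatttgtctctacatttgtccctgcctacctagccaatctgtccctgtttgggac

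Of the 11 called members, 10 had an entry among the windows of 250 bases before to 50 bases after a start, and HLA-DRA had none. The X box letters, searched on both strands, were in 5 of the 10 called members, against 0.853% of the 12072 tested genes with an entry and 0.817% of all 35116 windows. In HLA-DRB1, HLA-DRB5 and HLA-DQB1 the first ATTGG began 33 bases after the first base of the X box, and in HLA-DMA 34 bases after it. CCAAT on either strand was in 9 of the 10, against 42.9% of the tested genes with an entry and 34.6% of all windows. The letters were picked with these promoters known, and a match is a description of the sequence.

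The DP pair and DR chain showed the clearest values. HLA-DPA1 had 18.8, 26.3, 37.8 and 45.3 CPM with romidepsin, against 7.62, 15.3, 19.4 and 21.9 CPM without (log2 1.01 ± 0.09, edgeR adjusted p = 2.78e-06). HLA-DPB1, the beta chain of the same molecule, had 7.37, 11.9, 13.7 and 13.7 CPM with romidepsin, against 2.55, 6.07, 5.87 and 6.80 CPM without (log2 1.15 ± 0.12, edgeR adjusted p = 1.08e-05). HLA-DRA, the alpha chain of HLA-DR, had 20.5, 38.3, 56.5 and 71.0 CPM with romidepsin, against 6.92, 25.7, 33.4 and 42.2 CPM without (log2 0.86 ± 0.10, edgeR adjusted p = 6.65e-05). Within each dose the library with romidepsin was higher, but levels without romidepsin also climbed with azacitidine, so that the groups of HLA-DPA1 and HLA-DRA overlapped across doses.

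HLA-DQB1 and HLA-DOA did not climb with azacitidine, and their groups did not overlap. HLA-DQB1, the beta chain of HLA-DQ, had 30.1, 33.4, 29.6 and 29.8 CPM with romidepsin, against 20.6, 20.4, 18.3 and 19.3 CPM without (log2 0.64 ± 0.10, edgeR adjusted p = 0.000351). HLA-DOA, a chain of the HLA-DO regulator, had 9.01, 9.10, 7.74 and 8.16 CPM with romidepsin, against 4.75, 4.83, 3.31 and 2.65 CPM without (log2 1.14 ± 0.16, edgeR adjusted p = 0.000308). The other 6 called members, named after their values were seen, were HLA-DMA (log2 0.82), HLA-DMB (0.78), HLA-DRB5 (0.67), HLA-DRB1 (0.53), HLA-DQA2 (0.52) and HLA-DQA1 (0.38). HLA-DRB1 with HLA-DRB5 and HLA-DQA1 with HLA-DQA2 are near-identical copies between which reads may have been split. The regulator CIITA, also chosen after its values were seen, had 18.4, 24.1, 34.7 and 32.6 CPM with romidepsin, against 8.27, 18.9, 26.3 and 25.6 CPM without (log2 0.53 ± 0.17, edgeR adjusted p = 0.0834). CD74 did not pass either (log2 0.20 ± 0.11, edgeR adjusted p = 0.370).

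**Figure D2:**
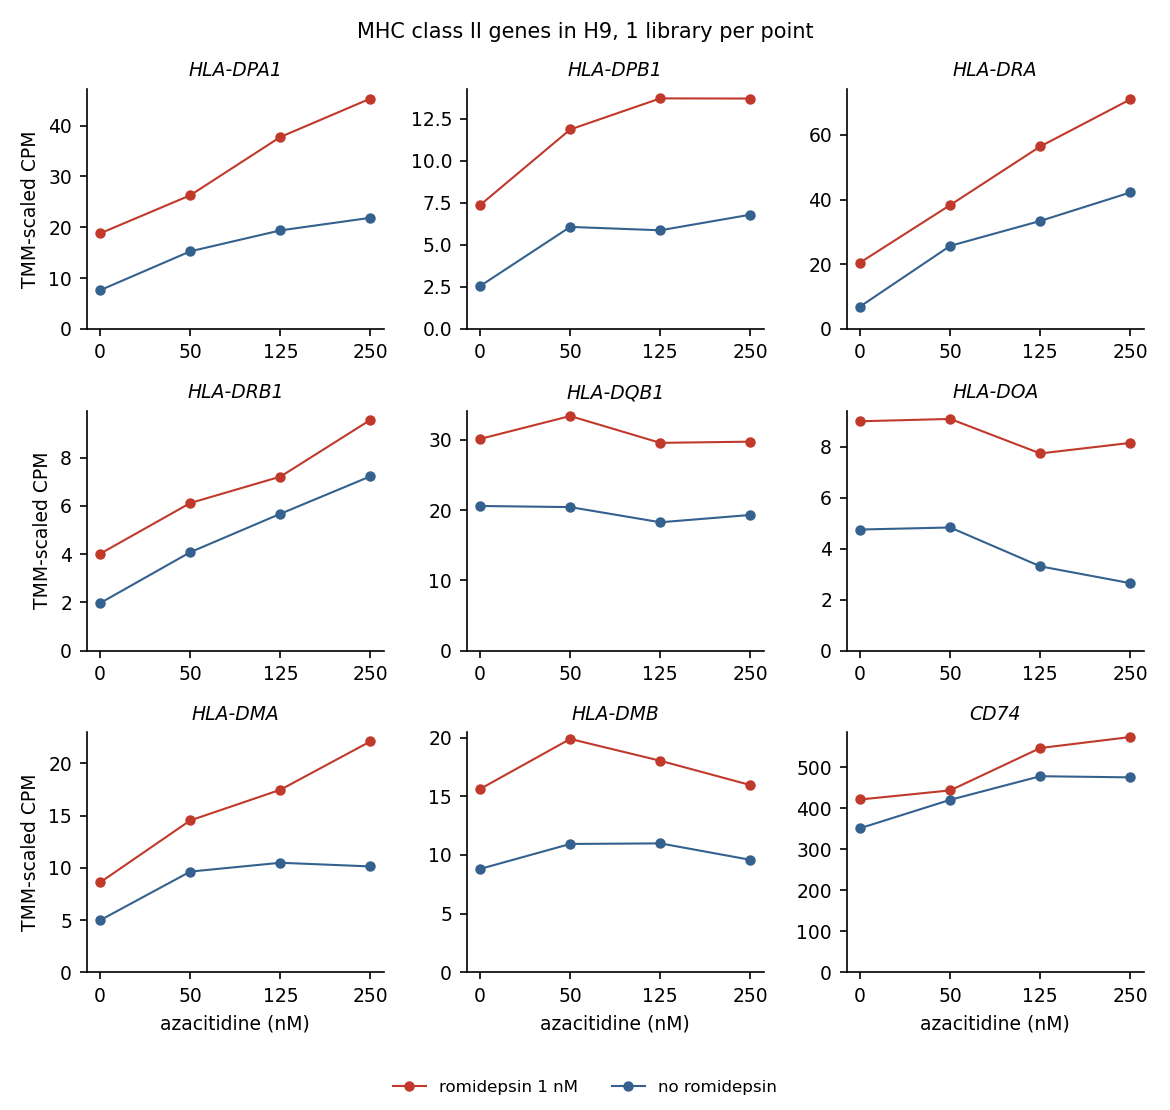
Each panel gives the TMM-scaled CPM of 1 MHC class II gene in H9 on a vertical axis that starts at 0, against the azacitidine dose in nM, with 1 library per point, red with romidepsin at 1 nM and blue without. The red point is above the blue one at each dose in all 9 panels. The log2 fold change is 1.15 for HLA-DPB1 and 0.20 for CD74, which did not pass the test.

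MHC class I genes gave 1 call. Of 26 members tested, 1 rose and none fell (3.85%, near the 4.77% of all genes tested). The median log2 fold change was 0.04. The 1 was ERAP2, a peptide-trimming enzyme (log2 0.30 ± 0.07, edgeR adjusted p = 0.0217, up to 0.150 when a dose pair or line was left out). Of 47 interferon-stimulated genes, 3 rose, where 3.82% of all genes tested rose, and the median was 0.05. IFI6, an interferon-induced mitochondrial protein, had 18.0, 24.9, 25.6 and 31.3 CPM with romidepsin, against 13.4, 15.9, 15.4 and 15.2 CPM without, with no overlap (log2 0.71 ± 0.14, edgeR adjusted p = 0.00339). The call was lost without the 250 nM pair, at an edgeR adjusted p of 0.05. OAS1 and OASL, sensors and relatives of the oligoadenylate pathway, had log2 fold changes of 0.68 and 1.17, and both lost the call without any 1 dose pair (highest edgeR adjusted p = 0.260 and 0.251).

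T-cell genes showed selected rises. Of 40 identity and receptor genes tested, 5 rose and 1 fell (15%, against 4.77% of all genes tested), with a median of 0.04. CD28, the main costimulatory receptor, had 20.9, 20.5, 16.6 and 14.6 CPM with romidepsin, against 13.6, 7.30, 6.97 and 4.22 CPM without (log2 1.26 ± 0.16, edgeR adjusted p = 8.03e-05). The libraries did not overlap, although both groups declined with azacitidine. SATB1, a chromatin organiser of T cells, had 2.87, 2.54, 2.51 and 2.03 CPM with romidepsin, against 1.31, 0.892, 1.18 and 0.823 CPM without (log2 1.24 ± 0.17, edgeR adjusted p = 0.000146). EOMES, a factor of cytotoxic and memory T cells, rose by 0.85 ± 0.12 (log2), and IKZF3, the lymphoid factor Aiolos, by 0.33 ± 0.07. IKZF3 lost its call without the 125 or the 250 nM pair (up to 0.0828), as did CD8A, which rose by 0.97 ± 0.22 from a level near 1 CPM (up to 0.171). The 1 member that fell was GATA3, the factor of type 2 helper cells, with 246, 213, 246 and 265 CPM with romidepsin, against 309, 266, 305 and 329 CPM without (log2 -0.32 ± 0.07, edgeR adjusted p = 0.0140). Its 4 pairs all pointed down and its groups did not overlap. CD4 had 21.8, 19.3, 26.7 and 20.9 CPM with romidepsin, against 14.1, 16.1, 18.1 and 12.2 CPM without, and did not pass (log2 0.55 ± 0.19, edgeR adjusted p = 0.113) although its groups did not overlap.

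Among 19 tested Sezary cell markers, 4 rose and none fell (21.1%, against 4.77% of all genes tested). Their median log2 fold change was 0.17. CADM1, an adhesion molecule gained in some T-cell malignancies, had 7.11, 10.3, 10.04 and 8.42 CPM with romidepsin, against 3.75, 3.88, 4.37 and 6.55 CPM without (log2 0.97 ± 0.13, edgeR adjusted p = 8.64e-05). STAT4, a signal transducer of interleukin 12 that Sezary cells commonly lose, had 11.6, 17.1, 15.9 and 12.6 CPM with romidepsin, against 5.10, 6.82, 6.34 and 5.01 CPM without (log2 1.29 ± 0.14, edgeR adjusted p = 2.41e-05). Neither gene's groups overlapped. DPP4, the surface peptidase CD26 that Sezary cells also commonly lose, had 85.7, 77.6, 61.8 and 47.8 CPM with romidepsin, against 56.5, 51.1, 41.6 and 39.2 CPM without (log2 0.52 ± 0.08, edgeR adjusted p = 0.000308). It was higher in 4 of 4 pairs, with the smallest gap at 250 nM. The homing receptor GPR15 rose by 0.65 ± 0.10 (log2).

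Some signalling molecules of the cell surface were called. Of 29 checkpoint and costimulatory genes, 3 rose and none fell (10.3%, against 4.77% of all genes tested), and the median was 0.18. CD244, a receptor of natural killer and cytotoxic T cells, had 6.36, 7.33, 7.07 and 3.83 CPM with romidepsin, against 2.59, 2.78, 1.93 and 1.22 CPM without (log2 1.54 ± 0.19, edgeR adjusted p = 4.63e-05), with no overlap. CD274, the ligand PD-L1, stayed under 1 CPM, with 0.574, 0.322, 0.672 and 0.705 CPM with romidepsin, against 0.155, 0.206, 0.354 and 0.358 CPM without. Its log2 fold change was 1.06 ± 0.31 (edgeR adjusted p = 0.0494), and the call was lost when any dose pair was left out (up to 0.198). CD86 was called on 10 counts over the 4 libraries with romidepsin against 0 without, a ratio of 3.67 to a floor of 3 counts over the group. The 95% interval of its ratio for counting error started at 2.47. The 10 counts came from 2 of the 4 libraries, and the call was lost without the 50, 125 or 250 nM pair and without PF382 (edgeR adjusted p up to 0.310).

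Of 26 cytokine and chemokine genes, 2 rose and 1 fell (11.5%, against 4.77% of all genes tested). XCL1, a chemokine of activated T cells, had 5.12, 18.6, 23.1 and 13.4 CPM with romidepsin, against 2.17, 5.86, 7.92 and 8.30 CPM without (log2 1.29 ± 0.19, edgeR adjusted p = 0.000266). It shares most of its sequence with XCL2, between which reads may have been split. IL10, an anti-inflammatory cytokine, had 23.1, 38.1, 37.6 and 32.3 CPM with romidepsin, against 14.5, 23.6, 19.97 and 19.1 CPM without (log2 0.76 ± 0.11, edgeR adjusted p = 0.000684). Both were higher in 4 of 4 pairs. CXCL10, an interferon-induced chemokine, fell by 1.08 on the log2 scale, to 0.706, 1.57, 1.55 and 1.46 CPM with romidepsin, against 0.966, 2.71, 3.03 and 4.97 CPM without, and the call was lost without the 250 nM pair (edgeR adjusted p = 0.126). Of 38 cytokine and chemokine receptors, 2 rose (5.26%, near the 4.77% of all genes tested). Among them was CCR1, a receptor for inflammatory chemokines, which rose by 0.40 ± 0.10 (log2). The CCR1 call was lost when any dose pair was left out (edgeR adjusted p up to 0.148). Of 17 cytotoxic genes, 17.6% were called. CRTAM and CST7 rose (log2 0.94 and 0.65) and GZMK fell (log2 -0.51). CRTAM and GZMK lost their calls when single dose pairs were left out (up to 0.203 and 0.241).

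Neuronal and synaptic genes, silent in most lymphocytes, rose in part. Of 49 tested, 11 rose and none fell (22.4%, against 4.77% of all genes tested), with a median log2 fold change of 0.51, against 0 over all genes. NXPH4, a secreted ligand of neurexins, had 8.34, 10.8, 10.5 and 34.6 CPM with romidepsin, against 3.09, 4.83, 5.40 and 15.5 CPM without (log2 1.17 ± 0.14, edgeR adjusted p = 4.1e-05). TUBB3, the neuronal beta-tubulin, had 15.5, 32.9, 34.9 and 37.2 CPM with romidepsin, against 7.58, 17.4, 19.0 and 13.3 CPM without (log2 1.08 ± 0.14, edgeR adjusted p = 0.000174). Each was higher at each dose. NRGN, a calmodulin-binding protein of dendrites, rose by 1.47 ± 0.21, SYT11, a synaptotagmin, by 0.68 ± 0.12, and NEFL, the light neurofilament chain, by 0.95 ± 0.17 (log2). The count of 11 was 7 without the 125 nM pair, 5 without the 250 nM pair and 0 without the dose blocks.

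Cell cycle and cell death genes gave few calls. Of 50 cell cycle and replication genes, 2 rose and 1 fell (6%, near the 4.77% of all genes tested). CDK6, a kinase of the G1 phase, had 95.2, 89.3, 79.0 and 67.7 CPM with romidepsin, against 52.7, 54.5, 50.1 and 50.9 CPM without (log2 0.66 ± 0.07, edgeR adjusted p = 1.83e-05). The groups did not overlap, and the gap was smallest at 250 nM. CCND1, the cyclin that pairs with it, rose by 1.39 ± 0.28 from under 1 CPM, with no call without the 250 nM pair (edgeR adjusted p = 0.0969). AURKA, a mitotic kinase, had a log2 fold change of -0.21 and lost its call without any 1 pair (up to 0.347). CDKN1A, the p21 inhibitor of cyclin-dependent kinases and a usual target of deacetylase inhibition, was the 1 call among 32 CDK inhibitors and p53 targets (3.12%). It had 4.50, 4.35, 5.41 and 11.6 CPM with romidepsin, against 2.71, 1.96, 1.97 and 2.54 CPM without (log2 1.44 ± 0.29, edgeR adjusted p = 0.00925). The groups did not overlap, and the call was lost without the 250 nM pair (edgeR adjusted p = 0.128).

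Of 33 pro-apoptotic genes none rose and 1 fell (3.03%, against 4.77% of all genes tested). The 1 was BIK (log2 -0.71 ± 0.17), with no call without the 50 or 125 nM pair (edgeR adjusted p up to 0.139). Of 11 anti-apoptotic genes none was called. BCL2L11, which encodes BIM, had 218, 252, 264 and 265 CPM with romidepsin, against 226, 235, 239.9 and 254 CPM without (log2 0.06 ± 0.08, edgeR adjusted p = 0.737). BCL2 had a log2 fold change of -0.03 ± 0.12 and MYC of 0.08 ± 0.09, and neither passed.

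The chromatin machinery gave some calls, with none for HDAC1, HDAC2, HDAC3 or HDAC8. HDAC1 had 417, 415, 409 and 416 CPM with romidepsin, against 421, 404, 406 and 409 CPM without (log2 0.02 ± 0.06, edgeR adjusted p = 0.953). HDAC2 had a log2 fold change of -0.11 ± 0.06 and HDAC8 of 0.10 ± 0.07. HDAC3 had a log2 fold change of -0.00 ± 0.10, with a sign that changed between fits. Of 18 deacetylases and sirtuins, 2 fell and none rose (11.1%). Over all genes tested, 4.77% were called and 0.953% fell. HDAC7 and SIRT5 fell by 0.29 and 0.27 on the log2 scale. Each call was lost when dose pairs were left out (edgeR adjusted p up to 0.195 and 0.348). Of 36 members of deacetylase complexes and acetylation factors, 1 was called (2.78%). The acetyltransferase KAT2B rose (0.40 ± 0.09, lost without the 50 or 125 nM pair, edgeR adjusted p up to 0.0839). None of 25 DNA and histone methylation enzymes was called. H1F0, the linker histone H1.0 and a frequent target of deacetylase inhibitors, had 5.12, 4.51, 5.16 and 8.69 CPM with romidepsin, against 4.14, 4.05, 5.55 and 9.23 CPM without (log2 0.05 ± 0.30, edgeR adjusted p = 0.997). Its groups overlapped fully. Over 39 tested histone genes the median log2 fold change was -0.33, with 1 call, HIST1H3B, on 36 counts with romidepsin and 105 counts without, a ratio of 0.377 (95% interval 0.251 to 0.556 for counting error), lower in 3 of 4 pairs. The call was lost without the 0, 50 or 125 nM pair and without PF382 or HH (edgeR adjusted p up to 0.409). Most histone messages lack poly(A) tails, and the selection step of these libraries is not settled by the labels. The drug pump ABCB1 had 9 counts with romidepsin and 2 counts without over 4 libraries each.

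Other lists held a few named rises. Of 41 cytoskeleton and adhesion genes, 6 rose and none fell (14.6%, against 4.77% of all genes tested). LGALS1, the secreted lectin galectin-1, had 19.2, 40.2, 89.1 and 115 CPM with romidepsin, against 7.58, 19.9, 43.2 and 33.3 CPM without (log2 1.30 ± 0.18, edgeR adjusted p = 0.000577). ANXA1, a phospholipid-binding protein, had 58.8, 57.9, 54.05 and 40.9 CPM with romidepsin, against 32.4, 38.6, 36.3 and 32.3 CPM without (log2 0.59 ± 0.09, edgeR adjusted p = 0.000387). LGALS1 was higher in each pair with groups that overlapped across doses, and ANXA1 did not overlap. Of 26 heat shock and redox genes, 3 rose and 1 fell (15.4%, at the same background). HSPB1, a small heat shock protein, had 55.0, 89.8, 105 and 105 CPM with romidepsin, against 28.1, 49.3, 50.3 and 37.4 CPM without (log2 1.10 ± 0.15, edgeR adjusted p = 0.000285). HMOX1, the haem-degrading enzyme, rose by 1.47 ± 0.20 and SRXN1, which repairs peroxiredoxins, by 0.67 ± 0.10 (log2).

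Of 22 HIV entry and restriction genes, 4 rose and 1 fell (22.7%, against 4.77% of all genes tested). Among those that rose were SAMHD1, an enzyme that breaks down nucleotides, with 52.6, 65.1, 66.6 and 66.0 CPM with romidepsin, against 37.6, 47.4, 46.7 and 44.7 CPM without (log2 0.51 ± 0.11, edgeR adjusted p = 0.00981), and the cytidine deaminases APOBEC3G and APOBEC3H (log2 0.57 and 0.96). The calls of SAMHD1, APOBEC3G and APOBEC3H were lost without the 250 nM pair, the first 2 also without the 125 nM pair (up to 0.0796, 0.198 and 0.0922). PSIP1, the integrase-tethering factor, had a log2 fold change of -0.20, which also lost its call without single pairs (up to 0.276). Of 29 AP-1 and immediate early genes, 4 rose (13.8%), among them BATF, an AP-1 factor of T cells (0.47 ± 0.08). EBI3, a subunit of interleukin 27 and 35, was the 1 call among 28 NF-kB subunits and targets (3.57%), at 1.47 ± 0.24 (log2). Of 23 drug handling genes, 3 rose (13%). They were SAMHD1, the nucleoside transporter SLC28A3 (1.42 ± 0.35, edgeR adjusted p up to 0.183 without a dose pair) and the cytidine deaminase CDA. CDA had 19 counts with romidepsin and 1 count without, a ratio of 20.9 (95% interval 3.32 to 869 for counting error). CDA lost its call without any 1 dose pair (edgeR adjusted p up to 0.320). Of 22 JAK-STAT genes, STAT4 rose, where 3.82% of all genes tested rose, and nothing is read from this about the list. Of 35 cholesterol and fatty acid genes, 5.71% were called. EBP had a log2 fold change of 0.21 and LSS of -0.39, both called and both lost without single dose pairs (edgeR adjusted p up to 0.362 and 0.0726). Of 30 ATF4 and endoplasmic reticulum stress genes, 1 was called (3.33%). It was ATF3 (0.78 ± 0.17, edgeR adjusted p up to 0.251 without the 250 nM pair). None of 38 glycolysis and hypoxia genes, 33 MYC and ribosome biogenesis genes, 30 germline genes or 6 metallothioneins was called, at a background of 4.77%. Of the 38 glycolysis and hypoxia estimates, 35 were negative, with a median of -0.19. Of 28 cancer testis antigens tested, none rose and PAGE5 and SSX3 fell (7.14%). PAGE5 had 56 counts with romidepsin and 155 counts without, and SSX3 had 4 counts with romidepsin and 27 counts without, both from families of near-identical copies. SSX3 lost its call without the 50, 125 or 250 nM pair (edgeR adjusted p up to 0.320).

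**Figure D3:**
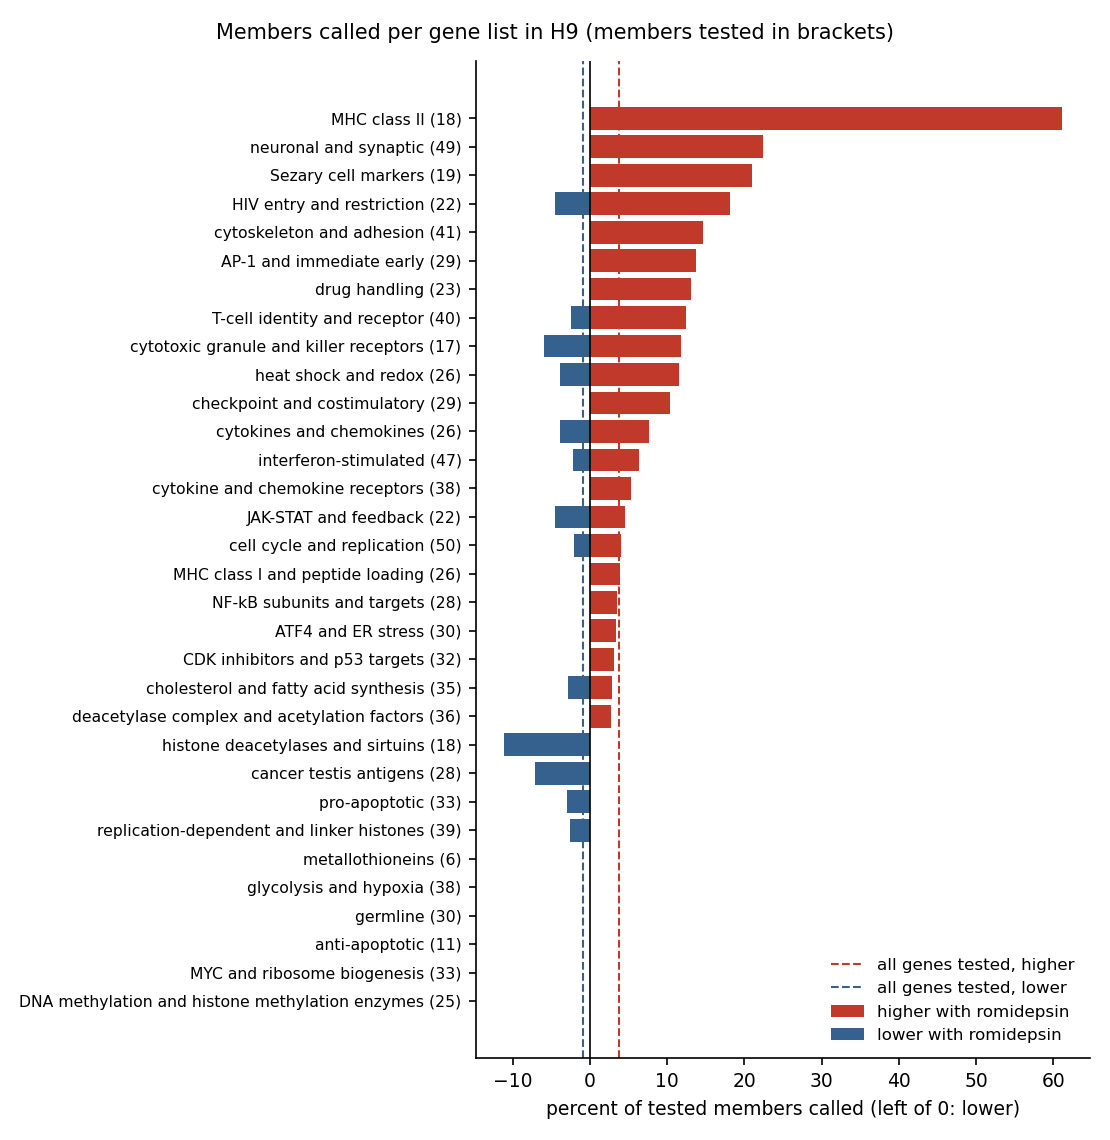
Bars give, for each gene list, the percent of tested members called in H9, red to the right of 0 for higher with romidepsin and blue to the left for lower, with the number tested in brackets and dashed lines at the percent over all genes tested (3.82 higher, 0.953 lower). For higher calls the longest bar is MHC class II at 61.1%, followed by the neuronal and synaptic list at 22.4%.

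The genes that fell furthest were again of many kinds. COL6A1, a chain of collagen VI, had 19.0, 5.76, 5.09 and 6.39 CPM with romidepsin, against 35.5, 26.9, 29.9 and 27.2 CPM without (log2 -1.91 ± 0.25, edgeR adjusted p = 0.000280). Every library with romidepsin was below every library without it, and the 3 pairs with azacitidine were further apart than the pair without. CBFA2T3, a transcriptional corepressor, had 0.0883, 0.161, 0.672 and 0.838 CPM with romidepsin, against 0.348, 0.857, 2.6 and 3.44 CPM without (log2 -2.03 ± 0.23, edgeR adjusted p = 3.22e-05). BAHCC1, a chromatin protein, had 7.24, 7.29, 11.8 and 23.1 CPM with romidepsin, against 8.08, 13.3, 35.9 and 60.0 CPM without (log2 -1.10 ± 0.16, edgeR adjusted p = 0.000460). Both climbed with azacitidine in either group, and the library with romidepsin was lower at each dose.

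SMPD3, a neutral sphingomyelinase, showed the same order, with 6.36, 8.94, 23.9 and 24.6 CPM with romidepsin, against 15.5, 21.3, 58.5 and 52.95 CPM without (log2 -1.23 ± 0.15, edgeR adjusted p = 4.56e-05). WNT10A, a Wnt ligand, went the other way with azacitidine, with 85.6, 41.1, 22.3 and 7.98 CPM with romidepsin, against 127, 90.4, 55.3 and 22.4 CPM without (log2 -1.09 ± 0.15, edgeR adjusted p = 0.000324). In both genes the library with romidepsin was lower in 4 of 4 pairs. SH3BP5, an adaptor protein, had 69.7, 77.5, 94.7 and 73.5 CPM with romidepsin, against 116, 127, 149 and 128 CPM without (log2 -0.72 ± 0.11, edgeR adjusted p = 0.000410), and its groups did not overlap. The ion channel gene KCNMA1 fell by 1.04, the integrin chain ITGB8 by 0.77, the kinase SIK1 by 0.62 and AHI1, a gene of the primary cilium, by 0.40 on the log2 scale.

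The 4 dose pairs were also described singly, with 1 library against 1 and no test. At least 2-fold higher with romidepsin, after adding 1 CPM, were 43 genes (0.251%) in the pair without azacitidine, 51 (0.298%) at 50 nM, 74 (0.433%) at 125 nM and 275 (1.61%) at 250 nM. At least 2-fold lower were 2, 9, 30 and 13 genes (0.0117%, 0.0526%, 0.175% and 0.0760%). The spread of the log2 ratio over genes was 0.198, 0.212, 0.234 and 0.318 (SD) in the same order. The difference between the 3 pairs with azacitidine and the pair without was tested in the fit with an interaction term. No gene passed (0%), and 276 genes (1.61%) had an unadjusted p under 0.05, with 0 calls also from DESeq2 and limma-voom. With 1 pair without azacitidine, a missed threshold does not show that the pairs respond alike.

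**Figure D4:**
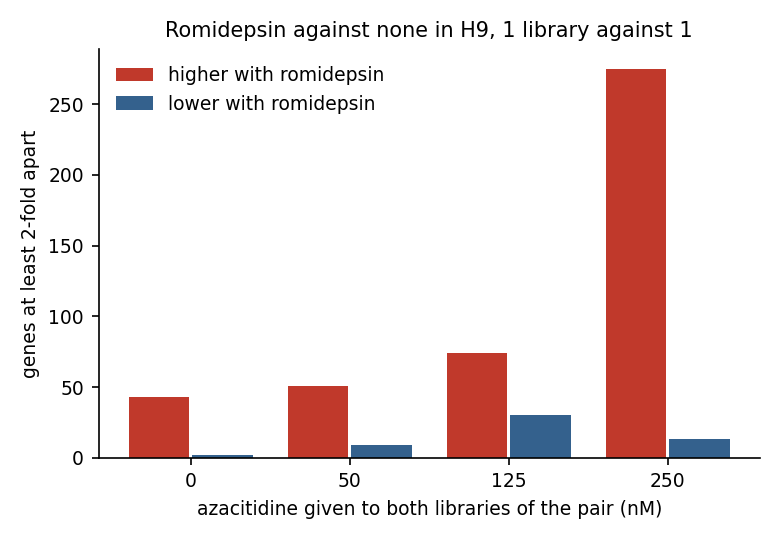
Bars count the genes at least 2-fold apart between the H9 library with romidepsin and the one without, after adding 1 CPM, at each azacitidine dose in nM, red for higher and blue for lower with romidepsin. The count of higher genes is 43, 51, 74 and 275 from left to right, with 1 library against 1 in each pair.

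H9 responded in fewer genes than the other lines in the same fit. Against its 816 called genes (4.77%), 5546 (32.4%) were called in PF382, a T-cell acute lymphoblastic leukemia line, 5688 (33.3%) in TLOm1, from adult T-cell leukemia, and 4981 (29.1%) in HH, like H9 from cutaneous T-cell lymphoma. Genes that rose were 18.7% of those tested in PF382, 17.9% in TLOm1 and 16.4% in HH, and genes that fell 13.7%, 15.4% and 12.7%. The doses differed, with romidepsin at 1.25 nM in PF382, 1 nM in TLOm1 and 1 or 1.25 nM in HH, and azacitidine up to 500.0 nM in PF382 and TLOm1. The median absolute log2 fold change over all genes tested was 0.121 in H9, 0.210 in PF382, 0.240 in TLOm1 and 0.220 in HH. The H9 effect minus the mean of the other 3 was tested directly. It passed for 1468 genes (8.58%), with H9 above the others in 554 (3.24%) and below in 914 (5.34%). Of the 914, 833 were genes not called in H9 itself.

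Among the 653 genes that rose in H9, 104 had an effect above the other lines' mean and 25 an effect below it. Among the 163 that fell, 56 had an effect below that mean and none above. Over all genes tested, 3.24% were above and 5.34% below. Both sets were picked by the H9 effect, which is part of this difference. A lean in their own direction was therefore built in, and no result is read from it. PTGS2, the inducible cyclooxygenase, had 1.54, 4.35, 5.69 and 2.95 CPM with romidepsin in H9, against 0.966, 0.995, 0.867 and 1.22 CPM without (log2 1.79 ± 0.25). The log2 fold changes were -0.61 ± 1.00 in PF382, which did not pass, 1.60 ± 0.16 in TLOm1 and -4.43 ± 1.07 in HH. H9 stood 2.93 above the mean of these lines (edgeR adjusted p = 0.00452). XCL1 stood 2.13 above the mean (edgeR adjusted p = 0.0153). Its log2 fold changes were -0.26 ± 0.33 in PF382, -2.37 ± 1.18 in TLOm1 and 0.10 ± 0.75 in HH, and none of these passed. TSPAN18, a tetraspanin, stood 1.87 above the mean (edgeR adjusted p = 0.00882). Its log2 fold change was 1.41 in H9, 2.14 in PF382, -0.34 in TLOm1 and -3.18 in HH. The TSPAN18 rise was thus larger in PF382 than in H9, and HH lowered the mean. COL6A1 stood 2.33 below on the log2 scale, a difference of -2.33 (edgeR adjusted p = 0.000546). Its log2 fold changes were 2.21 in PF382, -0.70 in TLOm1 and -0.23 in HH. The estimates in TLOm1 and HH did not pass (edgeR adjusted p = 0.117 and 0.742).

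The named genes on the low side had higher log2 fold changes in the other lines than in H9. IFNG, the gene of interferon gamma, had 9.62, 10.1, 6.58 and 1.59 CPM with romidepsin in H9, against 10.9, 9.19, 7.09 and 3.18 CPM without (log2 -0.22 ± 0.21). Its log2 fold change was 0.48 ± 1.26 in PF382, which did not pass, 4.35 ± 1.48 in TLOm1 and 5.95 ± 1.18 in HH. The difference of H9 from the mean of these lines was -3.82 (edgeR adjusted p = 0.0164). TXNIP, an inhibitor of thioredoxin often raised by deacetylase inhibitors, had a log2 fold change of -0.17 ± 0.23 in H9, 0.10 in PF382, 1.44 in TLOm1 and 4.31 in HH, a difference of -2.12 (edgeR adjusted p = 0.0291). NXPH3, the largest difference below, stood at -4.58 (edgeR adjusted p = 0.0229). Its log2 fold change was 6.20 ± 1.24 in PF382, 3.29 ± 1.79 in TLOm1 and 3.45 ± 1.79 in HH. The estimates in TLOm1 and HH did not pass (edgeR adjusted p = 0.19 and 0.18). The rule of at least 1 CPM for these named genes was applied to H9 only.

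Of the 18 class II genes, 5 had an H9 effect above the other lines' mean and none below. Over all genes tested, 3.24% were above and 5.34% below. This difference contains the H9 effect, in which the list had already risen. For HLA-DRA the log2 fold change was 0.86 in H9, 0.96 in PF382, -0.21 in TLOm1 and -0.24 in HH, and for HLA-DPB1 it was 1.15 in H9, 1.37 in PF382, -0.36 in TLOm1 and -0.26 in HH. H9 stood 0.69 and 0.90 above the mean of the 3 (edgeR adjusted p = 0.00947 and 0.00494). For HLA-DRA and HLA-DPB1 the PF382 estimates lay near those of H9, and those of both other lines were under 0. HLA-DQB1 and HLA-DOA rose more in PF382, by 2.68 and 2.16, than in H9, by 0.64 and 1.14 (log2). Their H9 effects did not differ from the other lines' mean by the test (edgeR adjusted p = 0.776 and 0.0838).

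**Figure D5:**
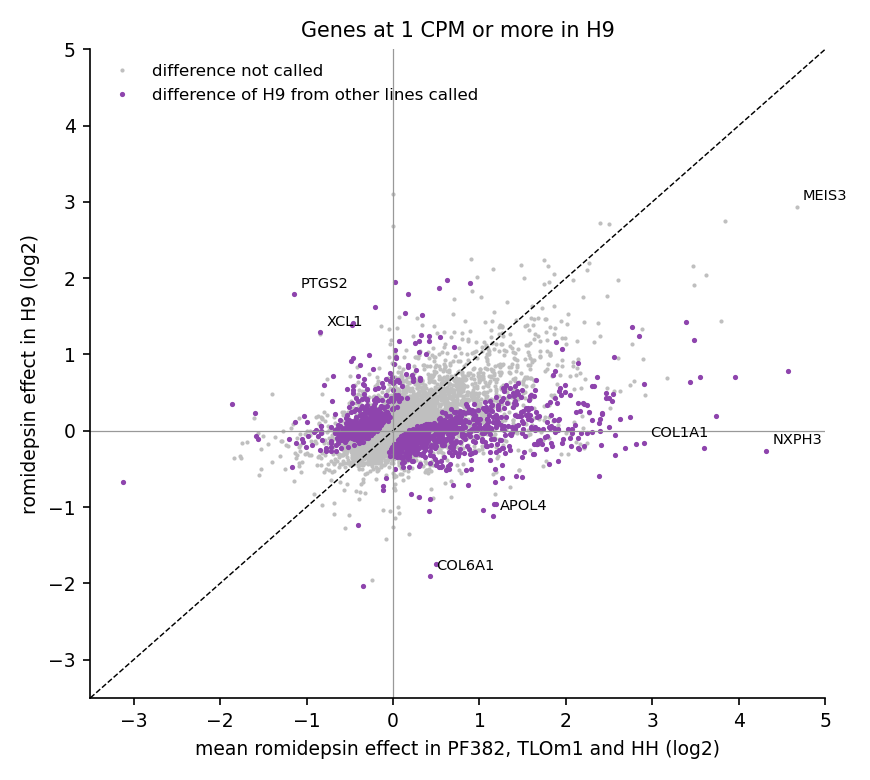
Each point is a gene with a mean of at least 1 CPM in H9, with its romidepsin log2 fold change in H9 on the vertical axis and the mean of the PF382, TLOm1 and HH log2 fold changes on the horizontal axis. Purple points are genes whose difference passed the test (1468 over all genes tested) and the dashed line marks equal effects. PTGS2 lies 2.93 above it and NXPH3 lies below it at a difference of -4.58.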

How the data were processed

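RNA of 32 libraries of 4 T-cell lines was sequenced, 8 of them H9. The authors deposited raw counts per gene symbol, 1 table of 25559 symbols per library. STAR, DESeq2, limma and the build GRCh37.p2 are named without versions, per the submitters' processing notes. For the read counter, annotation and strand setting: not given in the sources used here. RNA was extracted with RNeasy and stranded TruSeq mRNA libraries were run on a NextSeq 500, per the labels' protocols, which mention poly(A) RNA as well as depletion of ribosomal RNA.

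Counts were used as deposited. H9 totals ran from 22098317 to 29431141 counts, so 3 counts stood at 0.103 to 0.132 CPM. Genes passing edgeR's filter (minimum count 10, total 15, by line and romidepsin) numbered 17101. One edgeR 4.0.16 quasi-likelihood fit (R 4.3.3, TMM, robust) held all 32 libraries, 16 blocks of line and azacitidine dose and 1 romidepsin term per line, leaving 12 residual degrees of freedom. Contrasts were the H9 term and the H9 term minus the mean of the other 3. A second fit with 8 residual degrees of freedom held romidepsin by azacitidine terms. Adjusted p-values are Benjamini-Hochberg over all genes tested, called under 0.05. The fit was tested on simulated data that held no azacitidine effect and took their spread from the same model. Of genes changed 1.5-fold, 2-fold and 4-fold in H9, 74.6%, 83.6% and 100% were recovered, with 9 false calls. Such data cannot test the dose blocks or the sharing of the spread between lines. The pairing by azacitidine dose comes from the titles; the log2 differences of the 4 H9 pairs correlated at 0.61 to 0.79 over 10737 genes with a mean of at least 5 CPM.

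The p-values measure the spread between single libraries of dose pairs, with that spread shared over 4 lines, and not the spread between cultures. No 2 H9 libraries agreed within counting error (chi-square per gene at least 6.07). No sequencing batch is named in the labels. Intervals (95%, exact Poisson ratio) and floors describe counting error alone, as the labels name no molecular identifiers.

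Named genes were the 14 largest called changes in each direction (mean at least 1 CPM, same sign in 4 of 4 pairs), the 10 smallest p in each direction, up to 5 called members of each of 37 lists or 2 where none was called, the 6 largest differences from the other lines in each direction, and 14 check genes, 151 in all. The members and lists were chosen with earlier results of these data known. Alternatives were RLE and upper quartile scaling, no filter, a minimum count of 50, DESeq2 1.42.0, limma-voom 3.58.1, a left-out line, a left-out dose pair, H9 alone, no dose block, a 2-fold threshold and a pseudocount of 0.25 CPM. Of the list symbols, 10 were matched through older names. Some results that need withheld items are not reported here. Promoter sequences are RefSeq's, on GRCh38.p14.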

Additional observations from a re-analysis of the deposited data

Results flagged for a closer look

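The 4 pair differences (log2 of CPM + 1) were examined for 1 that stood apart in each of 107 called named genes, by the gap to the nearest pair relative to the range (Dixon, 95%). Chance flags about 1 in 20. In 7 of the 107 genes 1 pair stood apart, a count near that share. In each of the 7 it was the pair at 250 nM azacitidine. EEF1A2 was at 3.31 there and between 1.85 and 1.97 in the other pairs. FAM131B was at 2.33, against 1.18 to 1.34. NRGN was at 1.71, SRXN1 at 1.03 and SYT11 at 0.976, each above the other pairs. ITGB8 was at -1.09, against -0.609 to -0.544. DPP4 was lower than the rest, at 0.280, against 0.559 to 0.593.

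The romidepsin effect in H9 differed from the mean of the other 3 lines in 1468 genes (edgeR quasi-likelihood test of the difference). The named differences in the log2 fold change, H9 minus the mean of the others, were 2.93 for PTGS2, 2.45 for LOC254099 and 2.21 for BHLHB9. They were 2.13 for XCL1, 1.92 for MED12L and 1.87 for TSPAN18. Below the others were NXPH3 at -4.58, IFNG at -3.82, AIM1L at -3.78, LRG1 at -3.55, STAC2 at -3.26 and COL1A1 at -3.07. LOC254099 and BHLHB9 were not called in H9 itself, with log2 fold changes of -0.67 and 0.35. Their differences come beside values of -3.77 and -4.98 for LOC254099 and -3.33 and -2.35 for BHLHB9 in TLOm1 and HH. The BHLHB9 estimate in HH did not pass (SE 1.32, edgeR adjusted p = 0.227).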

How the results depend on the processing

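The 816 calls of the H9 effect were 805 with RLE scaling, 828 with upper quartile scaling, 747 with no filter, 784 with a minimum count of 50, 931 with DESeq2 and 1013 with limma-voom, and 791, 1137 and 863 without the libraries of PF382, TLOm1 and HH. The share of higher calls was 80%, and between 71.2% and 84.2% in those fits. With only the 8 H9 libraries, 2723 of 14201 genes were called (1589 higher, 1134 lower, 58.4% higher), of which 767 were among the 816. With 3 residual degrees of freedom, this fit takes its spread from H9 alone. A 2-fold threshold left 271. The replicate block is the azacitidine dose, so without it the dose response counts as spread: 54 genes were called, with 3 class II, 2 Sezary and 0 neuronal members. Leaving out a dose pair gave 286 to 591 calls for H9, 5 to 11 neuronal members (5 without the 250 nM pair and 7 without the 125 nM pair), and 686 to 923 calls for H9 minus the other lines (main 1468: 923, 706, 686 and 771 without the 0, 50, 125 and 250 nM pairs). Without PF382, 2332 genes differed from the mean of TLOm1 and HH; this mean is of another set of lines. The romidepsin by azacitidine contrast gave 0 calls in each fit run, also in the fit of the H9 libraries alone, an alternative chosen after seeing the data. It could not be fitted without the pair at 0 nM. With a pseudocount of 0.25 CPM, 220, 232, 312 and 714 genes were at least 2-fold apart in the pairs at 0, 50, 125 and 250 nM, against 45, 60, 104 and 288. No called named gene changed direction. Of 109 called named genes, 75 kept their calls without the 250 nM pair and 20 without the dose block. A few uncalled genes changed sign near 0. HDAC3 was 0.0043 with RLE, 0.014 with upper quartile scaling, 0.0083 with a minimum count of 50, 0.0044 with DESeq2, 6e-04 without HH and 0.0032 with H9 alone. Over left-out dose pairs it lay between -0.026 and 0.025, BCL2 between -0.0692 and 0.013, KLF1 between -0.62 and 0.13, NXPH3 between -0.61 and 0.076 and H1F0 between -0.025 and 0.11. The causes were not tested. Counts under 3 (0.103 to 0.132 CPM) limit genes such as CD86, SSX3 and ABCB1.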
